A study of Mus musculus with 2 samples.

Results

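Notch receptors, their ligands, the Delta-like protein Dlk2 and the Notch targets Hes1 and Hey1 with the DNA-binding partner Rbpj were followed in mouse epidermis with and without induced SOX11. The group holds 10 genes, Notch1, Notch2, Notch3, Jag1, Jag2, Dll1, Dlk2, Hes1, Hey1 and Rbpj, out of 34820 gene names on the arrays. Every probe that carried 1 of these names was taken, which gave 15 of the 55676 probes tested. The 10 genes were chosen from earlier results of the same comparison of SOX11-induced and control epidermis, so that their log2 ratios are given below as a description. The fit across all probes included them, and where they stood in it is also given only as a description.

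Epidermis of pups carrying K14-rtTA and TRE-Sox11-FLAG was set against epidermis of littermates carrying K14-rtTA alone. All pups were of the FVB/N strain and P4.5 of age, all carried the K14-rtTA transgene, and all received doxycycline (Dox) for 12 h, so that the TRE-Sox11-FLAG transgene was the labelled difference. The promoter of keratin 14 makes rtTA, a Dox-dependent activator, in the basal layer of stratified epithelia, and rtTA then switches on the Sox11 transgene from its TRE promoter. The labels name each pair as littermates. Per the methods, the pairs were matched by gender, and the dorsal epidermis was lifted from the dermis as a sheet with dispase, so that RNA came from all cells of that sheet.

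Each of 2 arrays held 1 pair of littermates, with control RNA in the Cy3 dye and RNA of the SOX11-induced pup in the Cy5 dye. Both arrays lay on the same slide and had the same dye orientation in the labels, so that a dye effect on a probe cannot be told apart from the genotype. The log2 ratio is that of SOX11-induced over control brightness after normalization, and errors are the SD of the 2 pairs (n = 2 throughout). A level is the log2 normalized brightness of a probe in 1 sample, and levels of different probes are not set against each other, since probes differ in how well they bind. Whether the levels of the groups overlapped is given below only as a description of 2 samples per group. The share of all probes that separate the groups in this way was not counted.

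Notch receptors are membrane proteins that are cut after a ligand of the Jagged or Delta-like family on a neighbouring cell binds them, and the released inner part enters the nucleus and acts with the DNA-binding protein RBPJ on targets such as the Hes and Hey genes. In epidermis, Notch signalling is known for its part in the step from the basal layer to the spinous layer, and Jag2 is a ligand of the basal layer. Dlk2, also called Egfl9, is a Delta-like protein close to Dlk1 that lacks the DSL domain through which classical ligands bind, and it has been described as a non-canonical regulator of Notch.

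The probe sequences show which stretch of each transcript the values come from. Only the first 30 of the 60 bases of a probe are printed, 5′ to 3′ as the array files give them and in lower case, for both probes of Dlk2 and that of Jag2, the genes with the largest log2 ratios of the group, and for Hes1 and Hey1, whose probes were not well above background. Positions are on mm9.
Dlk2 brightest probe, chr17:46440042-46440101: ctgtgatgggaggagcctttctagctacct
Dlk2 second probe, chr17:46439631-46439690: aagacttgtgaacttgtcctacctgctcca
Jag2, chr12:114146887-114146946: ttgtataaattattcaacggctgtcaggcg
Hes1, chr16:30067820-30067879: ttaaaatatcttcctttggggaagtttatt
Hey1, chr3:8663432-8663491: gatttgggctctaaaagtattgttttacag
The 2 Dlk2 probes do not overlap. They start at bases 1353 and 942 of the transcript the array was designed on, and both hold 55% G and C. The Jag2 probe starts at base 3908 of its transcript and holds 41.7%. The Hes1 probe is the one with the least G and C of the 15, at 26.7%, against 35% for Hey1.

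Promoter sequences were taken from RefSeq on GRCm38.p6, a later build than mm9, and 8 of the 10 genes had 1 or more of them (11 windows of 300 bases in all). Hes1 and Hey1 had no entry. The letters ACAAAG and ACAAT, cores to which SOX proteins bind, and TGGGAA, the core for RBPJ, were searched on both strands. Of all 32851 promoter windows of this length, 18.7% held ACAAAG, 31% held ACAAT and 25.6% held TGGGAA. The 250 bases before the start site are printed for Dlk2 and Jag2, which held none of the 3 cores, and for the upstream start of Dll1, the window of the group with the most SOX cores, whose matches are in capitals (ATTGT is ACAAT on the other strand).
Dlk2, chr17:46297233-46297482, plus strand: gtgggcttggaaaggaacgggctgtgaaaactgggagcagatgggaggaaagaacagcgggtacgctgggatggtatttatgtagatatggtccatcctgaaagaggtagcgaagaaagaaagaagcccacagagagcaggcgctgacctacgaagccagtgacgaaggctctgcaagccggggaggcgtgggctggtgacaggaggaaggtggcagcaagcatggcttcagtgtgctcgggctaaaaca
Jag2, chr12:112929496-112929745, minus strand: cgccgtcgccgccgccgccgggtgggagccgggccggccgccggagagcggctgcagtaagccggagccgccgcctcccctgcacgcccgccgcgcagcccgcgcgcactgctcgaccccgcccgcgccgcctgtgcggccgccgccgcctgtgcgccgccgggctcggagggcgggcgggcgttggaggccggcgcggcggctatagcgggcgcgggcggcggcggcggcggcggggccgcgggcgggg
Dll1, chr17:15376933-15377182, minus strand: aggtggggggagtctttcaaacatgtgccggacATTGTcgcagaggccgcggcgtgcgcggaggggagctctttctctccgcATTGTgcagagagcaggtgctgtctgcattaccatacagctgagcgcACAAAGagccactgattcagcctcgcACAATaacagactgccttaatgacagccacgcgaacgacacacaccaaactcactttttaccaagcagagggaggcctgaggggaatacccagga
The Dll1 window held ACAAAG 1 time, at -121 from the start, and ACAAT 3 times, at -217, -168 and -95, and no match overlapped another. Jag1 held ACAAT 1 time, at -163. Rbpj held TGGGAA 2 times before its first start, at -149 and -65. The window of its second start overlaps that of the first, and its match, at -205, is the same site as the one at -65. The second Dlk2 window, the other Dll1 window and those of Notch1, Notch2 and Notch3 held none of the cores. The printed Jag2 stretch is 87.2% G and C, the Dlk2 stretch 55.6% and the Dll1 stretch 56%. A match is a run of letters and was not measured as a binding site, and a window without a match says nothing about sites elsewhere.

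Dlk2 was lower in the SOX11-induced pup of both pairs, by the widest margin of the 10 genes. Its brightest probe (chr17:46440042-46440101) read 9.52 in the control and 7.70 in the SOX11-induced sample of pair 1, and 9.53 and 7.30 in pair 2. The control levels of the pairs lay close together and both SOX11-induced levels were below them, so the groups did not overlap. The log2 ratios were -1.82 and -2.23, with a mean of -2.02 ± 0.291, or a level 4.07 times lower. The second probe (chr17:46439631-46439690) read 7.07 and 5.87 in pair 1 and 7.39 and 5.86 in pair 2, so that it, too, separated the groups. Its log2 ratios were -1.21 and -1.52, with a mean of -1.36 ± 0.225, or 2.58 times lower. Both probes were well above background in all 4 samples. From the lowest ratio upward, Dlk2 had rank 9 among the 16341 names above background, meaning names whose probe was well above it on each array in 1 channel or both.

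The genes whose pair of log2 ratios lay nearest to that of Dlk2, by straight-line distance over the 2 arrays among 16333 names above background, were Megf6, Ccrl1, Nfic, Zbtb16 and Ehd2. Megf6, a protein with many EGF-like repeats, had -1.84 and -2.26 and lay at a distance of 0.0388. Ccrl1, an atypical chemokine receptor, lay at 0.108 and the transcription factor gene Nfic at 0.165. Zbtb16, which encodes the zinc finger protein PLZF, lay at 0.214, and Ehd2, a membrane-shaping ATPase, at 0.233. With 2 arrays, such nearness says only that these genes had ratios of like size.

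Genes on either side of Dlk2 in the RefSeq order did not share its ratio. They were picked after the values had been seen. Tjap1 had a mean log2 ratio of -0.07, Abcc10 -0.23 and Zfp318 -0.35, and Lrrc73 at 0.00 was not above background. None of the 4 passed the limma test described below, with adjusted p-values from 0.225 to 0.989.

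**Figure D1:**
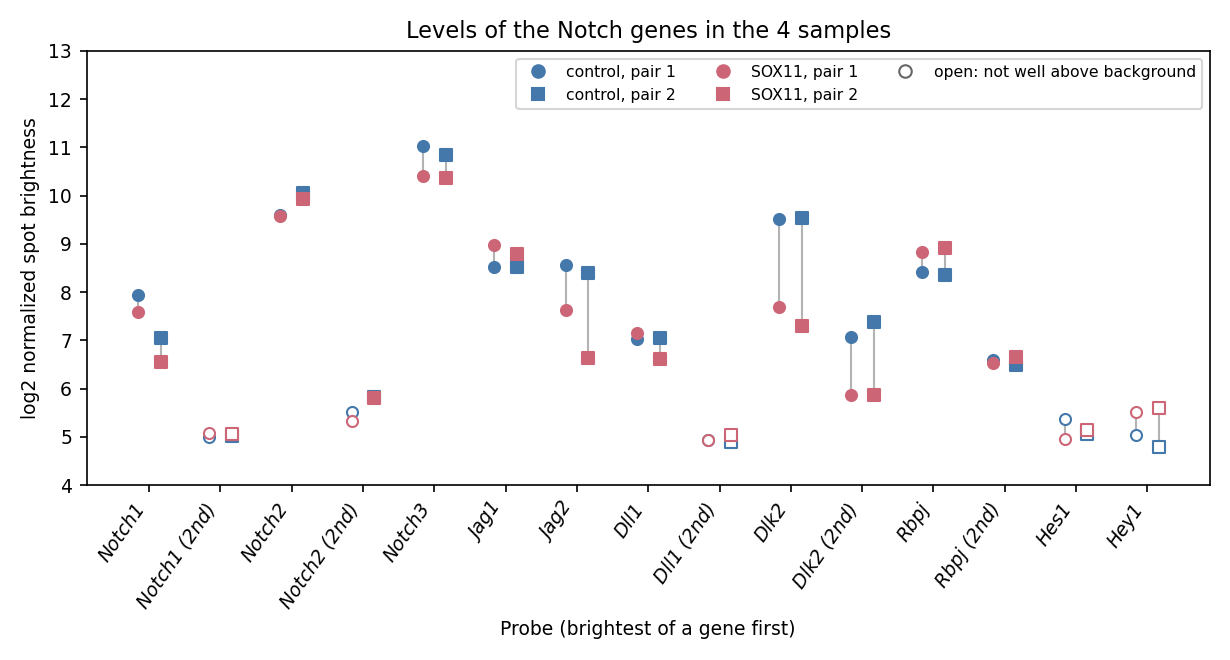
Log2 normalized brightness (vertical axis) of each of the 15 probes (horizontal axis) in the control (blue) and SOX11-induced (red) sample of pair 1 (circles) and pair 2 (squares), with a line joining the littermates and open symbols for samples not well above background. Both Dlk2 probes and Jag2 show the red symbols below the blue ones in both pairs, while Hes1 and Hey1 lie among the open symbols.

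Notch3, one of the receptors made in keratinocytes and also known from the muscle cells of vessels, was lower in both SOX11-induced samples. Its probe (chr17:32257848-32257907) read 11.03 and 10.41 in pair 1 and 10.84 and 10.36 in pair 2. Both SOX11-induced levels lay below both control levels. The log2 ratios were -0.63 and -0.48 (mean -0.55 ± 0.104), with all 4 samples well above background. Among markers of the mural cells of vessels, Myh11 and Rgs5 were not above background in any sample, Acta2 had ratios of 0.54 and 0.21, and Cspg4 fell, with -0.60 and -1.77, and their part in the Notch3 ratio was not tested.

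Notch1, the receptor best known for spinous differentiation, was also lower within each pair. The brightest of its probes (chr2:26319440-26319499) read 7.93 in the control and 7.59 in the SOX11-induced sample of pair 1. In pair 2 the levels were 7.06 and 6.55. Here the pairs differed by more than the littermates did, so that the SOX11-induced level of pair 1 lay above the control level of pair 2 and the groups overlapped. The log2 ratios were -0.34 and -0.51 (mean -0.43 ± 0.120). A second Notch1 probe (chr2:26314630-26314689) was not above background in any sample, with ratios of 0.08 and 0.04.

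Notch2 had the smallest differences of the receptors. The brightest probe (chr3:97953914-97953973) read 9.60 and 9.57 in pair 1 and 10.06 and 9.94 in pair 2, with log2 ratios of -0.03 and -0.12 (mean -0.07 ± 0.069). Differences within a pair were smaller than those between pairs, and the groups overlapped. The second Notch2 probe (chr3:97951233-97951292), above background only in pair 2, had ratios of -0.18 and -0.00.

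Among the ligands, Jag2 and Jag1 had ratios of opposite sign. The Jag2 probe (chr12:114146887-114146946) read 8.56 in the control and 7.64 in the SOX11-induced sample of pair 1, and 8.41 and 6.64 in pair 2. The control levels were alike and both SOX11-induced levels lay below them, by a wider gap in pair 2. The log2 ratios were -0.92 and -1.77, with a mean of -1.35 ± 0.597, or 2.54 times lower, and the rank from the lowest was 64 of the 16341 names. The SD of Jag2 was the largest among the 10 genes, and the gene had 1 probe, so no second probe speaks to its size. The genes beside Jag2, again picked with values known, had mean log2 ratios of 0.39 (Brf1), -0.15 (Nudt14) and 0.17 (Gpr132, not above background), with adjusted p-values from 0.179 to 0.632 in the limma test. Another neighbour in the RefSeq order, Gm52009, had no probe under that name.

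The Jag1 probe (chr2:136907433-136907492) read 8.52 and 8.98 in pair 1 and 8.51 and 8.79 in pair 2. Both SOX11-induced levels were above both control levels, and the log2 ratios were 0.46 and 0.28 (mean 0.37 ± 0.130). Jag1 and Jag2 thus ran in opposite directions in each pair, with all 4 samples well above background for both.

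Dll1, a Delta-like ligand known from basal cells, did not move the same way in the pairs. Its brightest probe (chr17:15504623-15504682) was printed 10 times on each array and read 7.02 and 7.15 in pair 1 and 7.05 and 6.62 in pair 2. The log2 ratios were 0.13 and -0.43 (mean -0.15 ± 0.397). Over the 10 spots the ratio ran from -0.09 to 0.26 in pair 1 (SD 0.111) and from -0.56 to -0.20 in pair 2 (SD 0.107). The spots of the pairs did not overlap, so the gap between pairs was wider than the scatter of the spots of an array. The other Dll1 probe (chr17:15513726-15513785) was not above background in any sample, with ratios of -0.01 and 0.13.

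Rbpj, the DNA-binding partner of all Notch receptors, was higher in both SOX11-induced samples by its brightest probe (chr5:54048503-54048562). That probe read 8.41 and 8.83 in pair 1 and 8.36 and 8.90 in pair 2, so the groups did not overlap. The log2 ratios were 0.42 and 0.55 (mean 0.48 ± 0.090). The second Rbpj probe (chr5:54044777-54044836), also above background in all 4 samples, had ratios of -0.05 and 0.17 (mean 0.06), so the probes of Rbpj disagree. They start at bases 5359 and 1633 of the transcript.

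Hes1 and Hey1, repressors that are classical targets of Notch and RBPJ, were not well above background in any of the 4 samples. The Hes1 probe (chr16:30067820-30067879) had log2 ratios of -0.41 and 0.08, and the Hey1 probe (chr3:8663432-8663491) 0.49 and 0.82. At these levels a ratio compares background with background, so no fold is given, and a difference in either gene was not detectable with these probes.

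**Figure D2:**
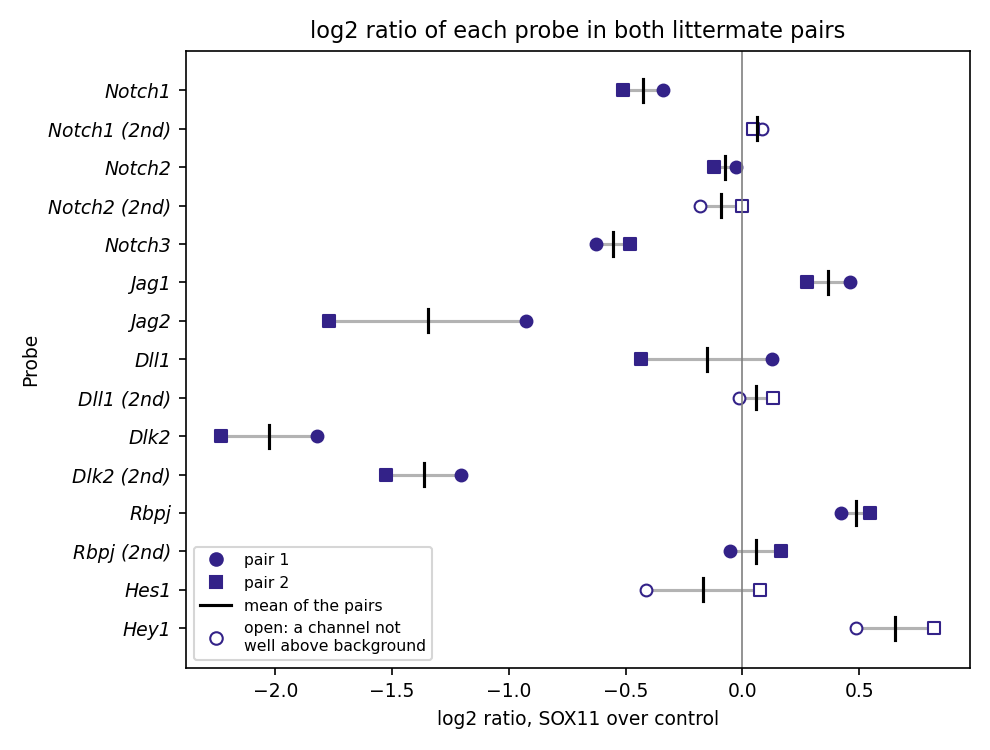
Log2 ratio of SOX11-induced over control brightness (horizontal axis) for each of the 15 probes (vertical axis) in pair 1 (circles) and pair 2 (squares), with the mean as a short vertical line and open symbols where a channel was not well above background. Both Dlk2 probes and Jag2 lie furthest to the left, Notch3 and Notch1 are moderately below 0, and Jag1 and the brightest Rbpj probe lie above 0.

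Across the group, with the brightest probe standing for each gene, 8 of the 10 genes were above background. Of these, 2 were higher in both pairs (Jag1 and Rbpj), 5 were lower in both (Notch1, Notch2, Notch3, Jag2 and Dlk2) and 1 had opposite signs (Dll1). Of all 16341 names above background, 6559 were higher in both pairs, 5585 lower in both and 4197 of opposite sign. The median of the mean log2 ratio was -0.16 for the 10 genes and -0.29 for those 8, against -0.00 over all 34820 names and 0.03 over the 16341 above background. The fit across all probes used limma with a threshold of an adjusted p under 0.05 by Benjamini-Hochberg. In it, 2 of the 10 genes were past the threshold in the lower direction, Dlk2 and Jag2, and 0 in the higher direction. Over all names, 1.75% were past it in the lower and 3.44% in the higher direction, and over names above background 3.47% and 6.81%. With a mean log2 ratio past 1.5 required as well, Dlk2 was the only member, against 0.123% of all names in the lower direction. At an unadjusted p under 0.05 in limma, 3 members were higher and 4 lower, against 4277 and 3584 of all 34820 names. Of the 8 above background, 2 were higher and 4 lower at that p, against 3046 and 2135 of the 16341 names above background. Since the genes were chosen with these ratios known, nothing is read from the counts.

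**Figure D3:**
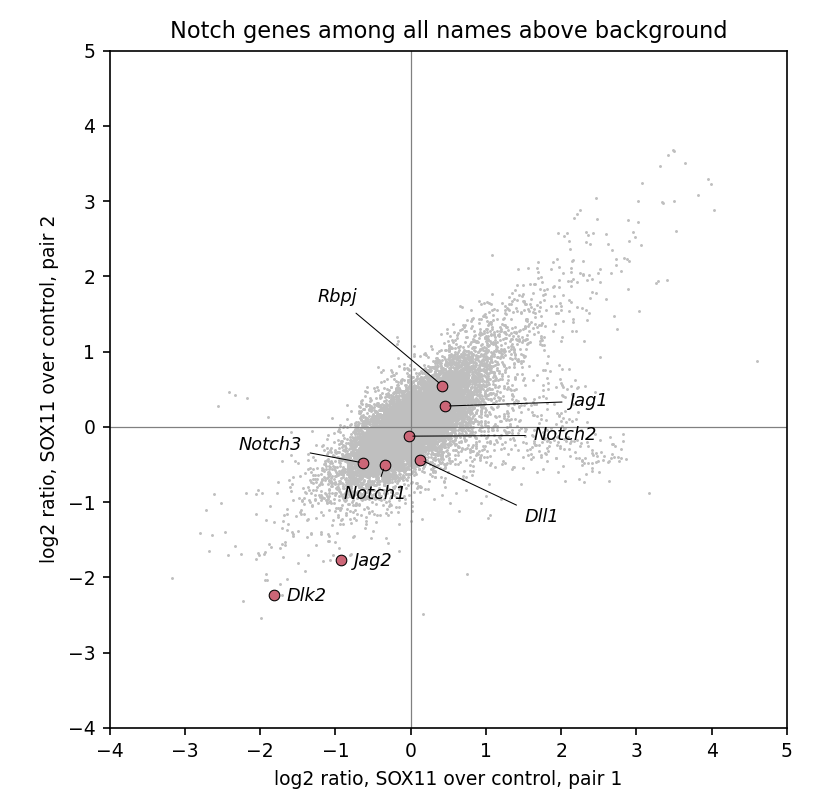
Log2 ratio of SOX11-induced over control brightness in pair 1 (horizontal axis) against pair 2 (vertical axis) for the 16341 names above background (grey) and the 8 Notch genes among them (red). Dlk2 and Jag2 lie in the lower left, and the other 6 lie within the main cloud.

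Other genes of the Notch pathway were taken from a list of 55 by role, of which 54 had a tested probe (Aph1c had none under that name) and 44 were above background. In this list 4 genes fell, Dtx4, Rfng, Dtx2 and Pofut1, and 0 rose, by limma at an adjusted p under 0.05 over all probes. Over all names, 1.75% were past it in the lower and 3.44% in the higher direction. Among names above background the shares were 3.47% and 6.81%. At an unadjusted p under 0.05 in limma, 7 of the 54 were higher and 8 lower, against 4277 and 3584 of all 34820 names. The list was chosen with earlier results known, so nothing is read from these counts. Another scaling, median centring, gave 23 higher and 1 lower at the adjusted p, so the counts depend on the scaling. Of the 4 genes that fell, Dtx4 alone passed with median centring (adjusted p = 0.0462) and none passed with the processed signals of the scanner software (adjusted p from 0.244 to 0.283). The median of the mean log2 ratio over the 54 was 0.02, against -0.00 over all names. Of the 54, 21 were higher in both pairs, 19 lower in both and 14 of opposite sign. Over all 34820 names these counts were 11550, 11618 and 11652.

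Among enzymes that put sugars on the receptors, 2 of 6 fell, against 1.75% of all names and 3.47% of names above background. The list was chosen with earlier results known, so nothing is read from this count. Rfng, a Fringe enzyme that changes which ligand a receptor prefers, read 11.62 and 10.56 in pair 1 and 11.37 and 10.65 in pair 2 (chr11:120642060-120642119), with ratios of -1.06 and -0.72 and a mean of -0.89 ± 0.244 (limma adjusted p = 0.0163). Pofut1, which adds the first fucose that Fringe enzymes extend, read 9.73 and 8.90 in pair 1 and 9.41 and 8.90 in pair 2 (chr2:153095876-153095935). Its ratios were -0.83 and -0.51, with a mean of -0.67 ± 0.221 (limma adjusted p = 0.0478). The Pofut1 call was lost with median spot brightness (adjusted p = 0.0703), with the authors' table (0.0696), with median centring (0.697) and with processed signals (0.283). In both genes a second, dimmer probe did not pass, with a mean of -0.09 for Rfng and -0.06 for Pofut1. That of Rfng was above background in all samples, while that of Pofut1 was not above it in either control and can show no fall. Lfng, another Fringe enzyme, was the highest of this role, at 0.50 ± 0.248 (limma adjusted p = 0.119).

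Among genes that dampen or turn over Notch, 2 of 10 fell, against 1.75% of all names and 3.47% of names above background. Nothing is read from this count either. Both genes are of the Deltex family, whose proteins attach ubiquitin and bind the inner part of Notch. Dtx4 read 8.21 and 7.44 in pair 1 and 8.17 and 7.04 in pair 2 (chr19:12540935-12540994), with ratios of -0.77 and -1.13 and a mean of -0.95 ± 0.260 (limma adjusted p = 0.0127). Dtx2 read 12.37 and 11.44 in pair 1 and 12.21 and 11.46 in pair 2 (chr5:136508675-136508734), with ratios of -0.93 and -0.75 and a mean of -0.84 ± 0.133 (limma adjusted p = 0.0171). In both, each SOX11-induced level lay below each control level. A second Dtx2 probe passed as well, with a mean of -0.71 (limma adjusted p = 0.0321), and was above background in the controls only, so it gives a bound of at least 1.37-fold lower. Dtx1, of the same family, which was above background only in the SOX11-induced sample of pair 1, had the highest ratio of this role, 0.67 ± 0.304 (limma adjusted p = 0.0559).

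In the other roles no gene passed. The receptor Notch4, with a mean log2 ratio of 0.31, and the 4 further ligands, from -0.18 for Dner to 0.43 for Dlk1, were not above background in any sample, apart from Dlk1 in the SOX11-induced sample of pair 2. The lowest of the 9 genes of receptor cleavage was Aph1a, a part of gamma-secretase, at -0.25. The 6 genes of ligand endocytosis ranged from -0.40 for Mib2 to 0.55 for Neurl1b, both ubiquitin ligases that act on ligands. The highest of the 9 nuclear cofactors was the coactivator Maml2, at 0.63 (limma adjusted p = 0.0533). That probe was not above background in the control of pair 1. A second Maml2 probe, not above background in any sample, had a mean of -0.04. The highest of the 9 further targets was Hes6, at 0.35. The target Cdkn1a, which encodes the cell cycle inhibitor p21, had -0.07 by its brightest probe and 0.77 by another (limma adjusted p = 0.0274), named after its values were seen.

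**Figure D4:**
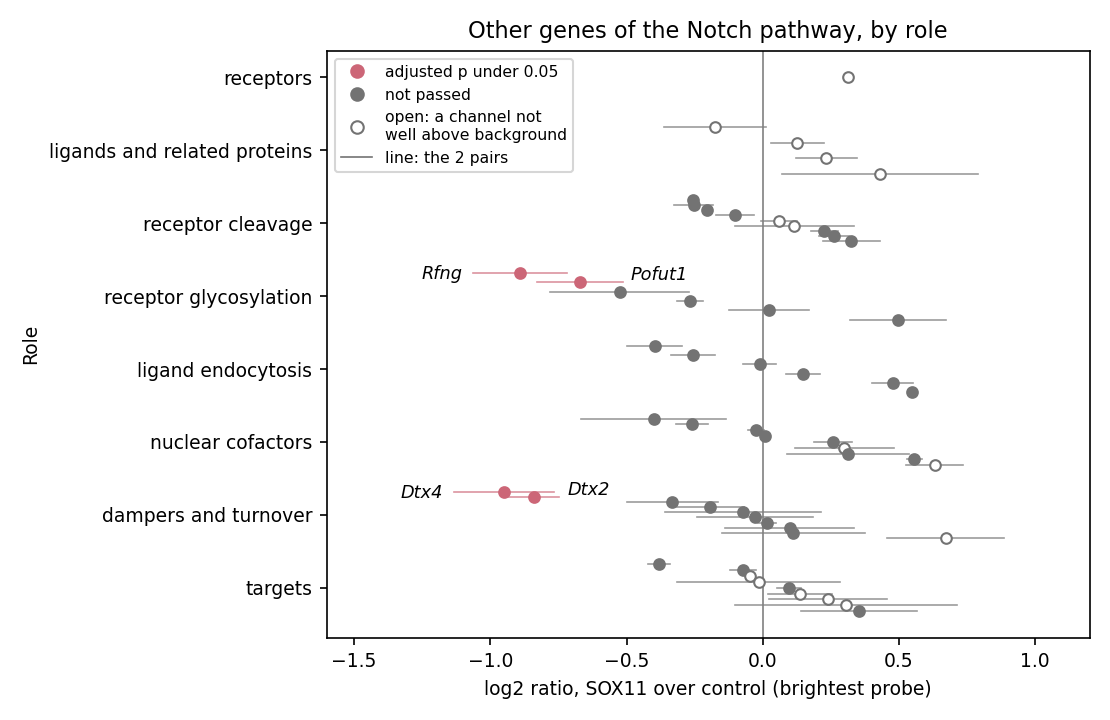
Mean log2 ratio of SOX11-induced over control brightness (points, horizontal axis) of the 54 other pathway genes by role (vertical axis), with a line from pair 1 to pair 2, red for genes past the adjusted p and open symbols where a channel was not well above background. The 4 red points, 2 in receptor glycosylation and 2 among dampers and turnover, all lie below 0.

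Markers of cell types were read beside these values. All 6 basal keratinocyte markers were above background in all samples, with medians on the log2 ratio scale of -0.21 and -0.43 in pairs 1 and 2, and 1 of them, Col17a1, fell (-1.32 and -0.88). The 4 suprabasal markers were higher in both pairs, with medians of 0.36 and 0.69, and none passed. The log2 summed level of the basal list was 17.8 and 17.6 in control and SOX11-induced samples of pair 1 and 17.7 and 17.1 in pair 2. The part of basal and suprabasal cells in the ratios of Dlk2, Jag2 and the other Notch genes was not tested. In such sheets of tissue, fewer cells of a type and less RNA per cell cannot be told apart.

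The 13 markers of hair matrix and shaft moved unlike the rest between pairs, with median ratios (log2) of 2.21 and -0.38 in pairs 1 and 2. Their log2 summed level was 15.2 in the control of pair 1 and 17.5, 18.4 and 18.0 in the SOX11-induced sample of pair 1 and the control and SOX11-induced samples of pair 2. Among the Notch genes, Jag2 went from -0.92 in pair 1 to -1.77 in pair 2, Dll1 from 0.13 to -0.43 and Dlk2 from -1.82 to -2.23. Notch1 went from -0.34 to -0.51, Notch2 from -0.03 to -0.12 and Jag1 from 0.46 to 0.28. The other way went Notch3, from -0.63 to -0.48, and Rbpj, from 0.42 to 0.55. The part of hair cells in these gaps was not tested. Of the fibroblast markers Dpt, Lum and Pdgfra were not above background, and of the endothelial markers Cdh5, Cldn5, Emcn and Tek were not, so 3 of 7 and 4 of 6 were below it throughout. The other fibroblast markers were above it in all samples. Dcn fell, with ratios of -0.97 and -0.62 (limma adjusted p = 0.0267), and the collagen genes Col1a1, Col1a2 and Col3a1 had -0.03, -0.17 and -0.17 in pair 1 against 0.77, 1.14 and 0.91 in pair 2. Of the other endothelial markers, Kdr was above background throughout, with ratios of -0.17 and -0.16, and Pecam1 in all but the control of pair 1, with 0.12 and -0.07. The part of fibroblasts in the Notch ratios was not tested. Leukocyte markers were above background except Lyz2, with medians of -0.30 and 0.00, and melanocyte markers had medians of 0.60 and 0.09. The Schwann cell marker Sox10 had ratios of 0.40 and 0.03.

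The number of arrays limits the precision. Of 59305 spots other than controls, 22235 to 25288 were well above background per sample. Across probes above background, which are not independent replicates, Pearson's r between the pairs was 0.685. Both Sox11 probes, which start at bases 7437 and 7983 of a long transcript, were not well above background in any sample, with ratios of -0.39 and -0.05 and of 0.10 and -0.35. Per the methods the transgene was built from the open reading frame of Sox11, and these bases lie well past it, so the probes check nothing about the induced gene. The related gene Sox4, read after its values were seen, had 3 probes that disagreed. The one at base 1010 of its transcript had log2 ratios of 3.49 and 3.68 (limma adjusted p = 1.96e-05), while those at bases 2636 and 4697 had means of -1.39 and -1.42 (limma adjusted p = 0.00209 and 0.00106).

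The sign of the smaller ratios depended on how the arrays were centred. Loess left the median log2 ratio of probes above background near 0, whereas median centring over all probes moved it to 0.51. On that scale Dlk2 was at -1.48 and Jag2 at -0.86, or -1.99 and -1.37 relative to the median above background. Notch3, Notch2 and Dll1 turned to 0.08, 0.53 and 0.23, and Notch1 came to -0.01, while Jag1 and Rbpj rose to 0.92 and 1.04. Relative to that median, Notch1 and Notch3 were at -0.52 and -0.43 and Jag1 and Rbpj at 0.42 and 0.53, with the signs of the loess values. Dll1, at -0.28, also kept its sign, while Notch2 did not, at 0.02 against -0.11 relative to the median with loess. Over the settings run, Dlk2 ranged from -2.34 to -1.48 and Jag2 from -1.74 to -0.86.

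**Figure D5:**
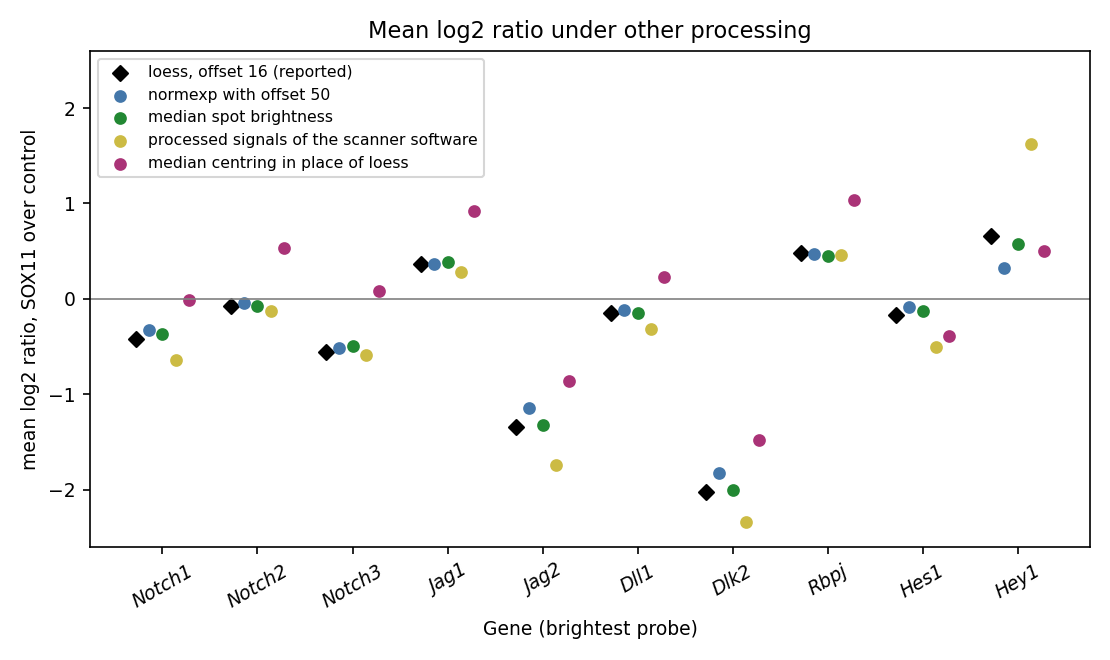
Mean log2 ratio (vertical axis) of the brightest probe of each gene (horizontal axis) as reported (black diamonds) and under 4 other ways of processing (coloured circles). Dlk2 and Jag2 are below 0 under each of the 5, while Notch2, Notch3 and Dll1 are above 0 under median centring.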

How the data were processed

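The arrays measured total RNA of epidermis from 2 littermate pairs, 1 pair per array. The intensity values that the authors deposited are spot and background brightness from Agilent Feature Extraction 10.7.3.1, per the file headers, with positions on mm9. The authors also deposited a table of log2 ratios, which matched values rebuilt from the median spot brightness with normexp, offset 16, and loess (Pearson r = 1 on both arrays). The methods mention a colour swap that the labels do not show.

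Mean spot brightness and median background were corrected with normexp (offset 16) and normalized by loess in limma 3.58.1 (R 4.3.3). Control spots had weight 0 and were dropped, as were flagged spots (194 and 186). Spots of a probe were averaged. A model with an intercept alone and eBayes was fitted to the 55676 probes, with Benjamini-Hochberg adjustment, and passing means an adjusted p under 0.05. With 2 arrays, calls and p-values lean mostly on the shared prior (8.24 degrees of freedom, SD 0.223). The spread of a probe between these 2 pairs has the smaller weight in them. A probe was above background when at least 0.5 of its spots were marked so. The brightest probe stood for a gene. Levels come from Aquantile scaling of the channels after loess. The fit was tested on simulated data.

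The genes, pathway list and marker lists were chosen with earlier results of these data known. By the naming rule, all 10 genes are given with every probe, pathway genes that passed or were the highest or lowest of their role, and the 5 genes nearest to Dlk2. A few of these named genes are not reported here. Protein sequences were not used here.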

Additional observations from a re-analysis of the deposited data

How the results depend on the processing

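Genes of the group past the adjusted p numbered 0 higher and 2 lower. The higher count was 1 with a normexp offset of 50 (Rbpj) and 4 with median centring in place of loess (Notch2, Jag1, Hey1 and Rbpj), and the lower count was 3 with offset 50 and 3 with only probes above background, where Notch3 was added, and 0 with the processed signals of the scanner software. Pathway genes numbered 0 higher and 4 lower. The higher count was 4 with offset 50, 23 with median centring, 3 with only probes above background and 3 with the median over a gene's probes. The lower count was 1 with median centring (Dtx4), 0 with processed signals and 2 with the median over probes. Pofut1 missed the threshold with median spot brightness and with the authors' table. Over all probes, 1626 passed higher and 772 lower, against 2855 and 1562 with offset 50, 12105 and 6292 with median centring, and 0 and 0 with processed signals (9764 at an unadjusted p under 0.05 in limma). Probes past 1.5 as well numbered 204 higher and 48 lower, against 745 and 10 with median centring, 31 lower with offset 50, and 0 and 0 with processed signals, so that 81% of them were higher in the main setting and 98.7% with median centring. The causes were not tested. With median centring, the median log2 ratio of probes above background was 0.51, against 0.04 in the main setting. Leaving out an array leaves 1 ratio per probe and no test, and gave from -2.23 to -1.82 for Dlk2 and from -1.77 to -0.92 for Jag2. Each ratio is already the paired difference of 2 littermates and the limma fit used these differences, so a further replicate block could not be fitted. Hes1 and Hey1 lie too near background for any difference to be read.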
